A study of Mus musculus with 2 samples.

Results

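Formative and primed pluripotency genes are switched on when embryonic stem cells (ESCs) leave the naive state. The 5 genes examined were Otx2, Fgf5, Pou3f1, Zic2 and Zic5, out of 22225 protein-coding genes of the GENCODE vM1 annotation. They were chosen by name, with earlier results of these data known. Every open region whose middle lay in a gene or within 50 kb on either side was assigned to that gene. Counted once each, these windows held 40 of the 71914 peaks listed for wild type (WT) cells and 43 of the 61640 peaks listed for Uhrf1 KO cells.

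The samples were undifferentiated mouse ESCs, either WT or lacking Uhrf1, a protein that binds hemi-methylated DNA and recruits the DNA methyltransferase Dnmt1. The paper obtained E14 and Uhrf1 KO ESCs from another group and does not name the parent line of the KO cells. Both samples were grown in serum medium with leukemia inhibitory factor on plates coated with gelatin or feeder cells. The labels give neither as a formative or primed culture. ATAC-seq, which maps accessible chromatin by where the Tn5 transposase can insert adapters, was run on 50000 lysed cells per sample. There was 1 library per genotype and 1 mutant cell line, so no test between genotypes was possible and each difference below is between those libraries, with no replicate error.

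In naive ESCs, factors such as Nanog, Esrrb and Klf4 hold the self-renewing state. On exit, Otx2 and Pou5f1 move to new enhancers, Fgf5 and Pou3f1 are induced, and cells of the formative and then the primed state become competent for the germ layers. Many regulators of this kind have CpG-rich promoters that are accessible before the gene is fully active, and gain accessible enhancers during exit.

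The regions within 2 kb of the gene starts are shown first, with 1 WT peak for each gene as an example of the letters there. The examples were chosen after their values were seen. Each line gives a WT peak of 101 bp in mm9, read 5′ to 3′ on the strand of the gene from the mm9 (NCBIM37) genome, with CpG dinucleotides in capitals. The Pou3f1 peak lay at −137 bp from the transcription start site (TSS), upstream, and the Zic2 peak at −72 bp. The Zic5 peak lay 739 bp and the Fgf5 peak 324 bp inside the gene, both in coding exons, and the Otx2 peak lay 1228 bp inside the gene in an intron.
Pou3f1, WT, chr4:124334709-124334809, plus strand: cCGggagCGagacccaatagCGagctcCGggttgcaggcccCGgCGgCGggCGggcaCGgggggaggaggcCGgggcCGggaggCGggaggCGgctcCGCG
Zic2, WT, chr14:122874482-122874582, plus strand: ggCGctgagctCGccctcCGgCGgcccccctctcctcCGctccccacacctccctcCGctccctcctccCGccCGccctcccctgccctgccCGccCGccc
Zic5, WT, chr14:122864110-122864210, minus strand: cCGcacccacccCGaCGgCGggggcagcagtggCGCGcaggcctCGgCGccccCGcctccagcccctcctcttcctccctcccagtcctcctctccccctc
Fgf5, WT, chr5:98683477-98683577, plus strand: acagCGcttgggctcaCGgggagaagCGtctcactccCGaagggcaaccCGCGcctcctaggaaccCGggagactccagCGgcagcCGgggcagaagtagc
Otx2, WT, chr14:49286041-49286141, minus strand: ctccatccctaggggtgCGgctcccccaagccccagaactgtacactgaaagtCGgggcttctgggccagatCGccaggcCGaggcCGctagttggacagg
The Pou3f1 peak held 15 CpGs, the Zic2 peak 10, the Zic5 and Fgf5 peaks 9 each and the Otx2 peak 5. Their GC content was 82.2% at Pou3f1 and Zic2, 78.2% at Zic5, 68.3% at Fgf5 and 65.3% at Otx2. Other start peaks of the same genes differed from these as much as the genes did. In the central 200 bp, the WT peaks near the Zic2 start ran from 55.5% to 76.5%, and the WT peak nearest the Zic5 start, at 106 bp, had 62.0% against 62.5% in the Fgf5 example and 59.5% in the Otx2 example.

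Peak numbers were nearly the same in both libraries at each gene. Otx2, a homeodomain transcription factor that drives exit from the naive state, had 10 WT and 10 KO peaks (95% exact Poisson interval 4.80 to 18.4 for each). Fgf5, a secreted FGF ligand and marker of the formative and primed states, had 4 in each list (1.09 to 10.2). Pou3f1, a POU-domain transcription factor also called Oct6, had 6 WT peaks (2.20 to 13.1) and 7 KO peaks (2.81 to 14.4). Zic2, a zinc-finger transcription factor, had 16 WT peaks (9.15 to 26.0) and 18 KO peaks (10.7 to 28.4). Its neighbour and relative Zic5 had 19 WT peaks (11.4 to 29.7) and 21 KO peaks (13.0 to 32.1). The intervals, which cover counting error only, overlapped between the lists at all 5 genes. At such small counts they are wide, so their overlap does not show that the numbers are equal. Neighbouring peaks of one open region are not independent either, so the true error is larger. The order of the libraries depended on the counting. With neighbouring peaks merged, Zic2 had 13 WT and 11 KO regions and Zic5 14 and 11, and over all loci WT had 29 and KO 28. With 20 kb on either side WT was also higher over all loci, with 29 against 28 peaks.

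**Figure D1:**
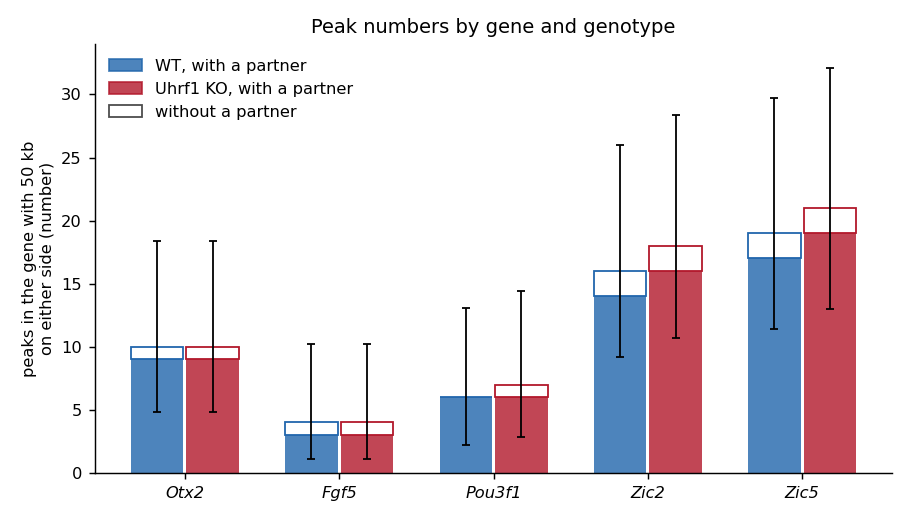
Number of ATAC-seq peaks (y axis) in each gene with 50 kb on either side for WT (blue) and Uhrf1 KO (red), split into peaks with a partner in the other list (filled) and without one (white); error bars are 95% exact Poisson intervals. The numbers run from 4 at Fgf5 to 21 at Zic5 in Uhrf1 KO, and the bars of both genotypes are close at each gene.

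Zic2 and Zic5 are not independent members. Their TSSs lie 9705 bp apart on chromosome 14, the genes are transcribed away from each other, and their windows shared 15 WT and 17 KO peaks. The joint locus held 20 WT and 22 KO peaks. The members therefore make up 4 loci.

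None of the 5 genes had peak numbers that differed by 1.5 times or more. Among 17666 protein-coding genes with at least 5 peaks in both lists together, WT was higher by that much at 33.6% and KO at 8.15%. With the KO numbers divided by the ratio of list lengths (0.857), these shares were 18.1% and 13.1%, and again 0 of the 5 members passed. With 20 kb on either side, Pou3f1 passed with 3 WT and 2 KO peaks, where 37.3% of 14261 genes passed toward WT and 10.3% toward KO.

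At these loci, the share of peaks without a partner was lower than in the whole lists under the main rule. A partner is a peak of the other list at most 100 bp away, and 4 of 40 WT peaks had none (10.0%, 95% exact Clopper-Pearson interval 2.79 to 23.7), against 32.1% of the WT list. In Uhrf1 KO, 5 of 43 peaks had none (11.6%, 3.89 to 25.1), against 24.6% of the KO list. Over peaks within 50 kb of any protein-coding gene the shares were 31.5% in WT and 21.3% in KO. Both WT background shares lay above the member interval, but both KO background shares lay inside it. Neighbouring peaks of one open region are not independent, so these intervals are too narrow. Where at least 1 bp had to be shared, the shares without a partner were 22.5% at the members against 38.0% of the list in WT and 23.3% against 29.4% in KO. Where at least 50% of both peaks had to be shared, the shares without a partner were 40.0% at the members against 50.2% of the list in WT and 46.5% against 42.4% in KO, so the order turned in KO.

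**Figure D2:**
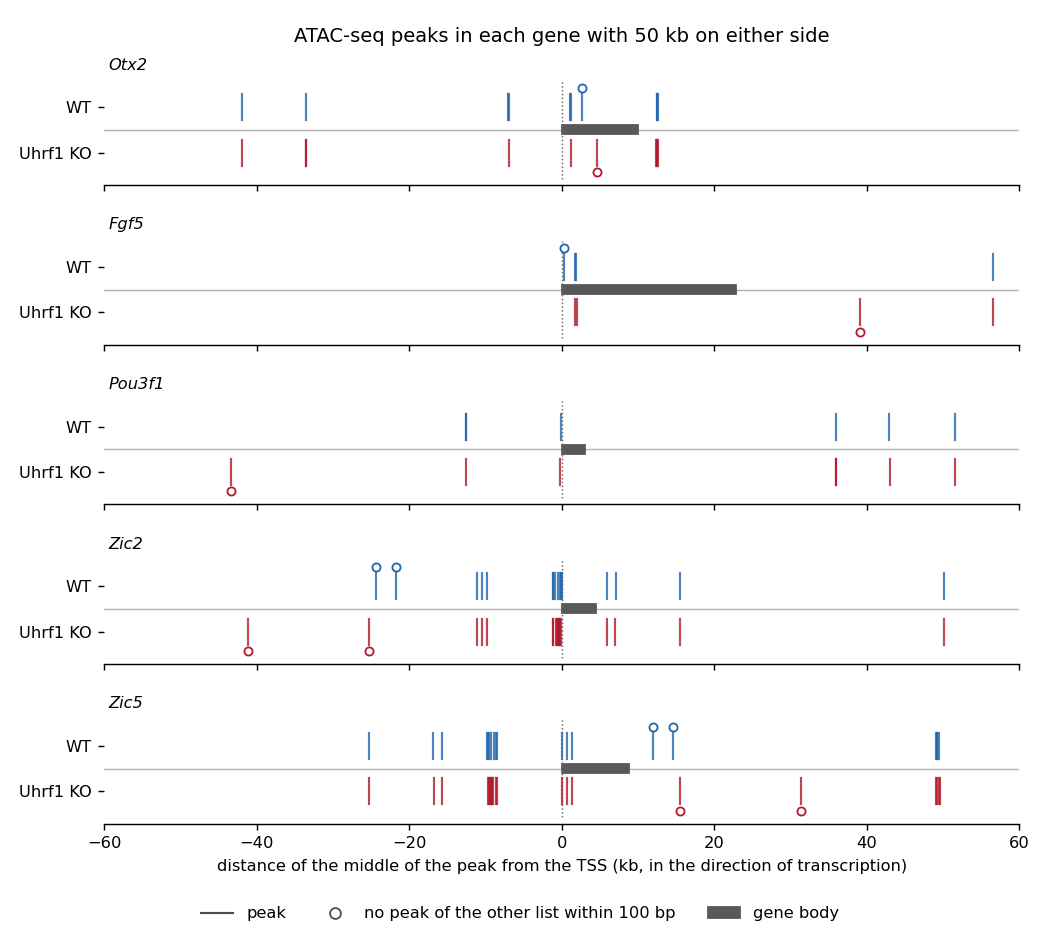
Positions of the peaks (vertical lines) by distance in kb from the TSS, in the direction of transcription, with WT (blue) above and Uhrf1 KO (red) below each gene body (grey); open circles mark peaks with no peak of the other list within 100 bp. Most lines face a line of the other list; the Zic2 and Zic5 rows show the same stretch of chromosome 14 in opposite directions.

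All 5 genes had a peak of both lists within 2 kb of the TSS, as did 54.0% of all protein-coding genes. Of the member peaks, 16 of 40 in WT (40.0%, 24.9 to 56.7) and 15 of 43 in KO (34.9%, 21.0 to 50.9) lay within 2 kb of a member TSS. Only 1 of these, the WT peak in the first exon of Fgf5, had no partner. Farther away, 3 of 24 WT and 5 of 28 KO peaks had none. In the whole lists, 24.6% of WT and 7.69% of KO peaks within 2 kb of a protein-coding TSS had no partner. Farther away these shares were 38.1% and 35.7%. The splits are not alike, since member peaks were placed by member TSSs only. Their far group includes peaks at the starts of other genes, such as Utp11l and Fhl3. The member numbers are too small to show a difference between near and far peaks.

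**Figure D3:**
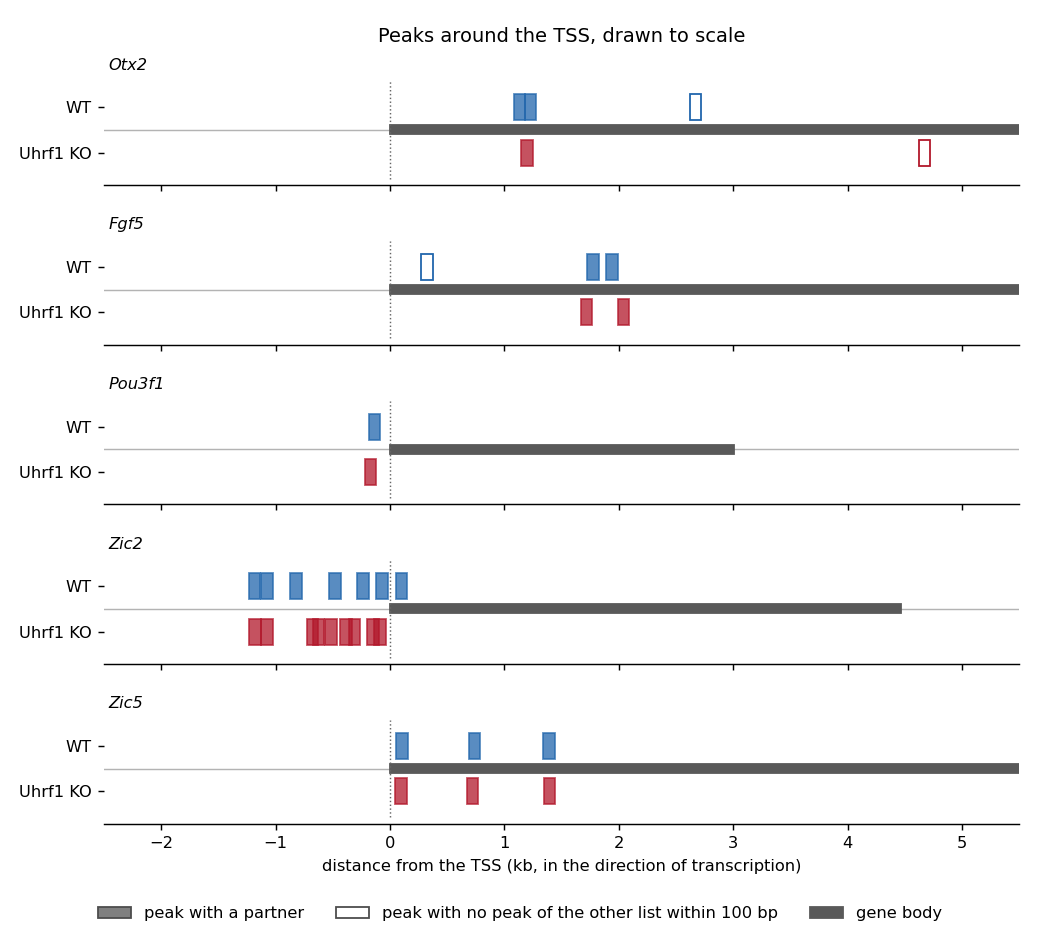
Peaks drawn to scale (101 bp wide) by distance in kb from the TSS for WT (blue, above) and Uhrf1 KO (red, below), filled with a partner and white without one, over the gene body (grey). Zic2 carries a run of 7 WT and 9 KO peaks within 2 kb, Fgf5 a WT peak at 324 bp that faces no KO peak, and Otx2 no peak within 1 kb.

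Otx2 lies on the minus strand of chromosome 14 from 49277354 to 49287319 and has 8 annotated transcripts. Neither list had a peak within 1 kb of its 5′ end. Inside the gene, WT peaks lay at 1132 and 1228 bp and a KO peak at 1199 bp, and both WT peaks overlapped the KO peak. They lay in an intron, the WT peaks 991 and 895 bp upstream of an internal Otx2 transcript start. A WT peak at 2670 bp, 272 bp past an annotated transcript start, had its nearest KO peak 1370 bp away. A KO peak at 4673 bp, 99 bp upstream of another Otx2 transcript start, had its nearest WT peak 1902 bp away. These internal starts each had a peak of 1 list only, while the other Otx2 peaks were paired. Upstream, paired peaks lay at −6.9 kb (WT −6864 bp, KO −6886 bp, 79 bp shared), with a further WT peak at −7002 bp, and others at −33.5 kb and −41.9 kb. Beyond the 3′ end, a group around 12.5 kb held 3 WT and 4 KO peaks. The WT peaks lay at 12454, 12548 and 12679 bp and the KO peaks at 12370, 12503, 12557 and 12622 bp. The closest pair, at 12548 and 12557 bp, shared 92 bp.

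Fgf5 lies on the plus strand of chromosome 5 from 98683203 to 98706049 and had the fewest peaks of the members at 50 kb. With 100 kb on either side it had 18 in each list, more than Otx2 with 11 WT and 12 KO and Pou3f1 with 11 and 9. The WT peak at 324 bp, in its first coding exon, was 1293 bp from the nearest KO peak. Fgf5 was thus the 1 member with only a WT peak within 1 kb of the TSS, a state of 6.88% of all protein-coding genes. In the first part of the gene body, KO peaks at 1718 and 2041 bp flanked WT peaks at 1776 and 1941 bp. The pair at 1718 and 1776 bp shared 43 bp, and the pair at 1941 and 2041 bp shared 1 bp. Downstream, a KO peak at 39066 bp had no WT peak within 17360 bp, and a pair at 56.5 kb (WT 56527, KO 56563 bp) shared 65 bp.

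Pou3f1 lies on the plus strand of chromosome 4 from 124334896 to 124337899. The region just upstream of its start carried 1 peak in each list, at −137 bp in WT and −169 bp in KO, which shared 69 bp. At −12.5 kb, a KO peak at −12507 bp lay between WT peaks at −12539 and −12479 bp and overlapped both. A KO peak at −43337 bp was the only Pou3f1 peak without a partner. The nearest WT peak was 30697 bp away and the nearest TSS was that of 3100002H09Rik. Downstream, the peaks near 36 kb and 43 kb lay within 116 bp of the starts of Utp11l and Fhl3, so the window holds promoters of other genes. A pair at 51.5 kb was listed 1 bp apart, at 51543 bp in WT and 51542 bp in KO.

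Zic2 lies on the plus strand of chromosome 14 from 122874604 to 122879074. Its start region carried the densest run among the members, with 7 WT and 9 KO peaks within 2 kb. The WT peaks lay at −1185, −1075, −822, −483, −234, −72 and 102 bp. The KO peaks lay at −1179, −1076, −677, −626, −515, −384, −310, −149 and −85 bp. All 16 had a partner, and the WT list alone had a peak past the start, in the 5′ part of the gene at 102 bp. Among all protein-coding genes, 493 (2.22%) had as many as 7 WT peaks within 2 kb, and 38 (0.171%) had as many as 9 KO peaks. With neighbouring peaks merged, the Zic2 window held 13 WT and 11 KO regions. Past the 3′ end of Zic2, paired peaks lay at 5977 bp in WT and 5947 bp in KO, and at 7153 bp and 6992 bp. A pair at 15501 and 15543 bp lay in a coding exon of Gm10837. The pair at 50188 bp in WT and 50184 bp in KO lay in sequence with 1199 and 1256 exact genomic copies of its central 31 bp, so its position is uncertain. The 4 outermost peaks of the upstream run lay 618 to 728 bp from the start of the non-coding gene 2610035F20Rik.

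Zic5 lies on the minus strand from 122856017 to 122864899, and its 3 peaks near the TSS were paired. They lay at 106, 739 and 1388 bp in WT and at 94, 720 and 1396 bp in KO and shared 89, 82 and 93 bp. Downstream of Zic5, WT peaks at 12036 and 14652 bp and KO peaks at 15559 and 31413 bp had no partner. The WT peak at 14652 bp lay 90 bp past the start of Gm5089, and the KO peak at 15559 bp was 806 bp from it. The KO peak at 31413 bp was 16660 bp from any WT peak. A group at 49 kb held 4 WT and 4 KO peaks, all paired. The WT peaks lay at 49060, 49186, 49265 and 49535 bp and the KO peaks at 49119, 49277, 49419 and 49553 bp. This group held the 4 member peaks with the lowest GC content, 40.5%, 43.0% and 43.5% in WT and 41.0% in KO.

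Over the loci together, GC content was higher near the starts. In the central 200 bp, the median was 66.2% in WT and 66.5% in KO within 2 kb of a member TSS. Farther away it was 58.5% and 55.8%. Most near peaks were from Zic2, with 7 in WT and 9 in KO, and Zic5, with 3 in each. The other near WT peaks had 59.0% and 59.5% at Otx2, 54.0%, 57.0% and 62.5% at Fgf5 and 78.5% at Pou3f1. In KO they had 58.5%, 56.0% and 76.0%. The lists were not split by distance for GC content. Over all member peaks the median was 60.2% in WT and 59.0% in KO, against 59.5% and 56.5% for the lists. The observed over expected CpG ratio was 0.58 and 0.48 against 0.54 and 0.45. Over peaks within 50 kb of any protein-coding gene, median GC content was 61.0% in WT and 58.5% in KO. The CpG ratio there was 0.61 and 0.53, above that of the member peaks. The 4 WT peaks without a partner had a median GC content of 63.2% and the 5 KO peaks 52.0%, against 58.0% and 49.5% for peaks without a partner in the lists.

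**Figure D4:**
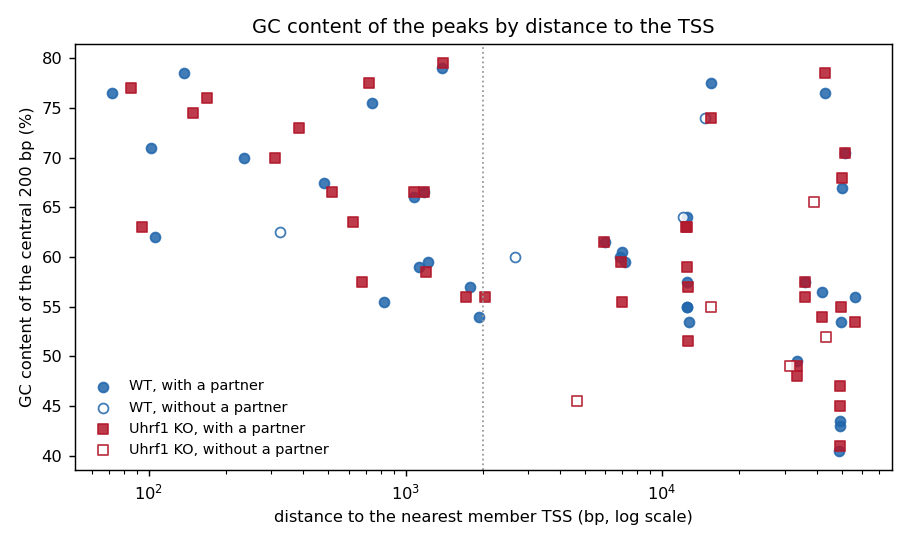
GC content (%) of the central 200 bp of each member peak against the distance to the nearest member TSS (bp, log scale), for WT (blue circles) and Uhrf1 KO (red squares), filled with a partner and white without one; the dotted line is at 2 kb. Median GC is 66.2% in WT and 66.5% in KO left of the line and 58.5% and 55.8% right of it. Most points left of the line are from Zic2 and Zic5.

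By the middle of the peak, 28 of the 40 WT peaks were intergenic, 6 intronic, 4 in coding exons and 2 in untranslated exon parts. In KO the numbers were 34, 5, 3 and 1. The nearest annotated TSS was that of a member for 26 WT and 26 KO peaks and that of another gene for 14 and 17, so the windows also cover neighbouring genes.

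Peaks at introns and distal positions are shown next, since these hold letters that members of the Oct, Otx and Zic families are known to bind. The motifs searched on both strands of the central 200 bp were ATGCAAAT (POU octamer), TAATCC (Otx type), CCTGCTG (Zic type) and CATTGT (Sox type). The lines give the strand of the gene in mm9 with matches in capitals, over the whole peak for the first line and over the central 200 bp for the others.
Otx2, Uhrf1 KO, chr14:49282596-49282696, minus strand: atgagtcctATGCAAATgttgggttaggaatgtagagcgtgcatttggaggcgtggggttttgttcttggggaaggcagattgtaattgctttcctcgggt
Otx2, WT, chr14:49274672-49274871, minus strand: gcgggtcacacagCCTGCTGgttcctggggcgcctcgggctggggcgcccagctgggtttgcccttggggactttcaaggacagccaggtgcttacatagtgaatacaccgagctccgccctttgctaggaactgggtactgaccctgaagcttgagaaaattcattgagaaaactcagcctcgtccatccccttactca
Fgf5, Uhrf1 KO, chr5:98684822-98685021, plus strand: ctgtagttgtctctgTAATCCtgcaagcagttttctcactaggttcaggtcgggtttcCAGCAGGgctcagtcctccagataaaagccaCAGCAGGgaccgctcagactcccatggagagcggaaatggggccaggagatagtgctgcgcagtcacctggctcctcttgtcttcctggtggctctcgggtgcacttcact
Pou3f1, Uhrf1 KO, chr4:124322290-124322489, plus strand: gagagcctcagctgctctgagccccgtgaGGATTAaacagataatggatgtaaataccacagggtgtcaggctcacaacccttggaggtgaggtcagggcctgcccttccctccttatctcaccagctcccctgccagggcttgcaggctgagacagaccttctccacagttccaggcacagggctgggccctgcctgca
Zic5, Uhrf1 KO, chr14:122815681-122815880, minus strand: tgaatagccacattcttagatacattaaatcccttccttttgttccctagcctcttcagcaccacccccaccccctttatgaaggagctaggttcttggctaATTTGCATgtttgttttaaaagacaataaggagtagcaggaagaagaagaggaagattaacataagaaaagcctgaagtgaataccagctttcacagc
The first line is the KO peak at an internal Otx2 start and holds an octamer. The second is a WT peak of the group 12.5 kb from the Otx2 start, with a Zic type match. The third is the Fgf5 intron peak at 1718 bp, with an Otx type match and a pair of Zic type matches. The fourth is the Pou3f1 peak at −12.5 kb, whose Otx type match was also in both WT windows there, and the fifth is a KO peak 49 kb from the Zic5 start with an octamer.

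Matches were few. The octamer was found in 2 of 40 WT peaks (5.00%) and 2 of 43 KO peaks (4.65%), against 1.58% and 1.95% of all peaks in the lists. Both WT matches and 1 KO match were at the 49 kb group of Zic5, where windows overlap and hold the same octamer. The Otx type was found in 2 WT peaks (5.00%, list 3.75%) and 3 KO peaks (6.98%, list 4.71%), and the Zic type in 6 (15.0%, list 11.1%) and 7 (16.3%, list 10.3%). At Otx2, the windows of the WT peaks at 12454 and 12548 bp held the same Zic type match. Those of the KO peaks at 12370, 12503 and 12557 bp held it as well. Overlapping windows count such a match more than once, so the exact intervals are too narrow. The Sox type was found in 0 WT peaks, where the exact interval reaches 8.81% and the list had 6.91%, and in 2 KO peaks (4.65%, list 8.60%). The list shares lay inside the exact intervals of the members for every motif and both genotypes. A match is a description of the letters and not a binding site.

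Other gene groups give the scale for the members. The median of the 5 members was 10.0 peaks in both lists, with 0 genes higher in WT, 3 higher in KO and 2 equal. Those higher in KO were Pou3f1, Zic2 and Zic5. The Zic2 and Zic5 windows shared 15 WT and 17 KO peaks, so these genes are not separate observations. The order of the lists was not stable. With 20 kb on either side, and with neighbouring peaks merged, 2 members were higher in WT and 2 in KO. With 100 kb these numbers were 1 and 3. The lists below were counted with 50 kb only and, like the members, were chosen with earlier results of these data known. The 14 other formative genes had medians of 11 in WT and 7 in KO, with 11 higher in WT, 1 in KO and 2 equal. Of these, 6 of 14 were past the 1.5-fold difference toward WT, against 33.6% of all genes. Lef1, a transcription factor of the Wnt pathway, had the most WT peaks of these genes, with 17 in WT and 14 in KO. Sox3, a neural Sox factor, had 6 and 2, the fewest in KO, and Grhl2, an epithelial transcription factor, had 4 and 5, the fewest in WT.

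The 10 family relatives had medians of 10.5 in WT and 9.50 in KO, with 7 higher in WT and 2 in KO. Zic1 and Zic4, which like Zic2 and Zic5 are neighbours, had 17 WT and 12 KO peaks each in overlapping windows. The 9 naive genes found had medians of 13.0 and 10.0 and were all higher in WT, and the 9 neural genes found had medians of 9 and 7, with 8 higher in WT and 1 equal. Toward WT, 2 of 9 tested relatives, 1 of 9 naive and 6 of 9 neural genes were past 1.5-fold, and 0 genes of these lists were past it toward KO. The median over all 22225 protein-coding genes was 7 in WT and 5 in KO, with 12614 higher in WT and 5170 higher in KO. A peak of both lists within 2 kb of the TSS was present at 11 of 14 other formative genes, 7 of 10 relatives, 7 of 9 naive genes and 6 of 9 neural genes.

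**Figure D5:**
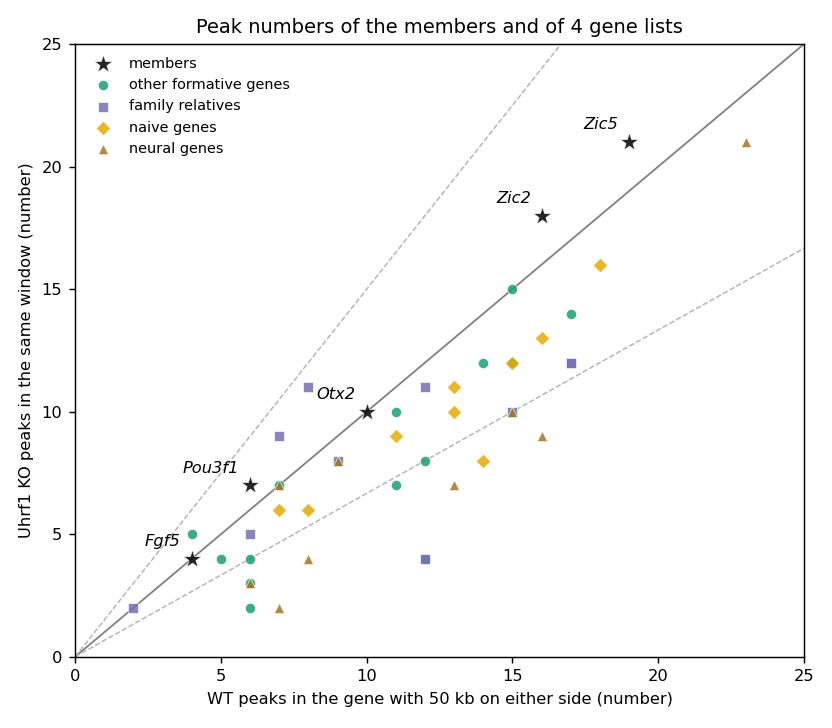
WT (x axis) against Uhrf1 KO (y axis) peak numbers in the gene with 50 kb on either side for the 5 members (stars) and the genes of 4 lists; the solid line marks equal numbers and the dashed lines a 1.5-fold difference. Counted with 50 kb, the members lie on or above the solid line, while 11 of 14 other formative and 9 of 9 naive genes lie below it. Zic2 and Zic5 share most of their peaks.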

How the data were processed

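ATAC-seq peaks of 1 WT and 1 Uhrf1 KO library were compared. The authors mapped reads to mm9 with Bowtie2 2.1.0 and used fragments shorter than a mono-nucleosome. HOMER 4.9.1 is listed in the submitters' processing notes with no role. The peak caller, its threshold and any Tn5 shift are not given in the sources used here. The deposited score was 1 for every peak, so it holds no peak strength, and the depth behind a peak is unknown. All deposited peaks were 101 bp wide except 1.

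Genes and TSSs (5′ end of the protein-coding gene record) came from GENCODE vM1, and sequence from the mm9 (NCBIM37) genome, with Python 3.11.15, numpy 2.4.6, pandas 2.3.3, scipy 1.17.1, pysam 0.24.0, samtools 1.23.1 and matplotlib 3.10.9. A RefSeq promoter table on GRCm38 coordinates was left aside. The comparison of peak positions was tested on simulated regions. Of 83 member peaks, 81 had a central 31 bp found once in the genome, and the other 2, a pair near 50 kb from the Zic2 start, lay in sequence with up to 1256 copies.

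The members and lists were chosen with earlier results of these data known. Named were the 5 members, each peak within 2 kb of a TSS, up to 3 peaks without a partner nearest the TSS per gene and genotype, and, in the lists, genes with the highest or lowest peak number or on which the comparison turned. Other peaks named were chosen after their values were seen. Tfcp2l1 and Sox1, listed among naive and neural genes, were not analysed here. Alternatives were other windows, partner rules, distances, folds, minimum numbers and merged peaks. A stricter score could not be applied, so the lower 50% of the numbers in the peak names was used. The meaning of these numbers is not stated, so this may not be a filter on peak strength.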

Additional observations from a re-analysis of the deposited data

How the results depend on the processing

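No paired analysis was possible because there was a single library of either genotype, and for the same reason no library could be left out. With 100 kb on either side the member loci held 61 WT and 62 KO peaks, and with 20 kb 29 WT and 28 KO peaks. With neighbouring peaks merged they held 29 WT and 28 KO regions, so in both the order of 40 WT to 43 KO turned. With at least 1 bp shared 22.5% and 23.3% had no partner, against 10.0% and 11.6%. In the lower 50% of name numbers, 9.09% of 22 WT and 5.00% of 20 KO member peaks had none. The whole lists were not counted in this way. In them, peaks without a partner had median name numbers of 71.8 in WT and 73.0 in KO, against 34.7 and 39.1 with one. A low share in the lower 50% therefore does not set the members apart. Where at least 50% of both peaks had to be shared, 40.0% of WT and 46.5% of KO peaks had no partner. Within 1 kb of a member TSS lay 22.5% of WT peaks. Inside the peak itself, a window chosen after seeing the data, the octamer was found in 0 WT peaks. In KO it was found in 2, as in the central 200 bp. Genes past the fold numbered 2641 toward WT and 448 toward KO at 2 times against 5943 and 1439 at 1.5 times, 677 toward KO with at least 10 peaks, and 3202 and 2313 after scaling by list length. The other 35 values of the main results stayed inside the 95% counting interval or, for gene counts, within 1.5 times. For GC content the range was the middle 50% of peaks. Those at 1 bp, in the lower 50% and for the octamer in KO were among these 35. So were those without repeated sequence or without chromosome 8, both chosen after seeing the data. For single genes, 26 values stayed within their counting interval. Outside it were Fgf5 with 100 kb (18 peaks in WT and in KO), Pou3f1 with 20 kb (2 KO peaks) and Zic5 merged (11 KO regions). With no read counts or replicates, differences in the strength of a shared peak cannot be seen.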
